A study of Mus musculus with 47 samples.

Results

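The RNA levels of 8 genes that restrain or report signalling through the ERK kinases, of the FGF receptor gene *Fgfr4* and of *Rgs2*, a regulator of G protein signalling, were followed across every RNA-seq group of a study of MyoD1 dosage in C2C12 cells, an immortalized line of mouse myoblasts. The 8 were 3 Sprouty genes (*Spry1*, *Spry2* and *Spry4*), 3 dual-specificity phosphatase genes (*Dusp4*, *Dusp5* and *Dusp6*) and the ETS factor genes *Etv4* and *Etv5*. The genes were found by symbol among the 45706 genes of the deposited tables, and all 10 were present. *Rgs2* was chosen by its large fall with doxycycline (dox) at 24 h of differentiation, so its levels at that time are a description, and no p-value of a member is given for the dox contrast at 24 h and nothing is read from counts of members in it. The other 9 genes belong to FGF and ERK signalling, but the list was drawn up with earlier results of these data in view.

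The study asked what happens when MyoD1, the transcription factor that commits cells to muscle, is raised above its normal level. C2C12iMyoD1 cells carry the endogenous *MyoD1* gene and a dox-inducible Halo-tagged MyoD1 gene that was inserted by transposition, and they are a mixed population in which only some nuclei switch the transgene on. These cells were treated with dox or vehicle for 24 h in growth medium (0 h of differentiation), or with dox or vehicle during 24, 48 or 120 h of serum starvation, the treatment that starts differentiation. At 120 h, cultures were sequenced whole or after being passed through a 40 µm strainer, which gave a myoblast-enriched flow-through (<40 µm) and a myotube-enriched retentate (>40 µm). The lines C2C12iCdh23 and C2C12iMcam, labelled as inducible for the adhesion genes *Cdh23* and *Mcam*, were serum-starved for 48 h with dox or vehicle. This gave 16 groups and 47 libraries, with 3 libraries per group and 2 (replicates 2 and 3) in the myoblast-enriched fraction with dox. All groups share the C2C12 background, and no group of dox-treated cells without a transgene was analysed here.

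Growth factors such as the FGFs bind receptor tyrosine kinases, which switch on RAS and, through RAF and MEK, the kinase ERK. ERK phosphorylates ETS factors and other regulators, and among the genes it raises are its own brakes: Sprouty proteins act between the receptor and RAS, while dual-specificity phosphatases remove the phosphates that activate ERK. DUSP6 resides in the cytoplasm, and DUSP4 and DUSP5 in the nucleus. *Etv4* and *Etv5* encode ETS factors that are transcribed in response to FGF signals and are widely read as reporters of them. FGFR4 is the FGF receptor typical of differentiating myoblasts, and RGS2 shuts off G protein signalling downstream of Gq-coupled receptors. In muscle cells, mitogen signalling through ERK keeps myoblasts dividing, and it falls when serum is withdrawn. RNA levels of these genes do not measure ERK activity itself.

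Salmon estimates per transcript were added up for each gene and rounded, and each level is given as CPM, the count scaled to a fixed library size with TMM factors over all libraries. Each library held between 15066338 and 50950674 estimated counts (median 22837926), and the lowest count of a member in any library was 7, for *Spry1* at 0 h without dox and at 24 h with dox. Replicates are labelled as biological replicates. Every library showed myogenic identity markers, at a sum of 447 CPM or more over 6 genes, while 8 markers of blood, endothelial, epithelial, fat and glial cells together stayed between 1.25 and 8.12 CPM. The summed level of 14 myotube markers was 3.14 CPM at 0 h without dox, 15.9 at 24 h and 17878 at 48 h. The induced gene gives no check of the dox labels in C2C12iMyoD1. *Myod1* averaged 178 CPM without and 188 CPM with dox at 0 h and 135 and 117 CPM at 24 h. It was lower with dox at 48 h (388 and 306 CPM) and in whole cultures at 120 h (279.9 and 92.0 CPM). Whether the transcript reference held the transgenes is not given in the sources used here. *Mcam* rose from between 17.1 and 19.8 CPM to between 69.0 and 74.7 CPM in C2C12iMcam. *Cdh23* was already between 348 and 451 CPM without dox in C2C12iCdh23 and between 426 and 568 CPM with dox. The labels put the 48 and 120 h libraries in a batch of their own, apart from those of 0 and 24 h, so the batch and the step from 24 to 48 h cannot be told apart.

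Both myotube-enriched libraries labelled replicate 2 went against their labels. As a measure, the mean log2(CPM + 1) of 428 genes lowered by dox in the whole cultures at both 48 and 120 h was subtracted from that of 316 genes raised at both times, with the 10 members left out. In the myotube-enriched fraction without dox, this difference was -2.35 and -2.64 in replicates 1 and 3 but -0.89 in the library labelled replicate 2. With dox it was -0.48 and -0.17 in replicates 1 and 3 but -2.93 in the library labelled replicate 2. In the myoblast-enriched fraction, the 3 libraries without dox lay between -2.32 and -1.77 and the 2 libraries with dox at -0.21 and -0.31. The labels were kept as deposited, and the edgeR counts and the differences given for the myotube-enriched fraction are shown with and without these libraries, a comparison chosen after the data were seen.

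Sequences upstream of 3 members are shown because their RNA levels stood out below. *Dusp5* did not pass with dox at 48 and 120 h in C2C12iMyoD1 when *Dusp4* and *Dusp6* fell. *Etv5* had the largest fall of the members with dox in whole cultures at 120 h, and *Rgs2* was high in a single group. They come from RefSeq (GRCm38.p6), whose promoter table held 7 of the 10 members, and are cut to the bases before the GENCODE gene start. In the 250 bases before each RefSeq start, the motifs searched on both strands were the CArG box bound by serum response factor, the E-box CAGCTG of the kind bound by MyoD1, the AP-1 site TGACTCA, the ETS site CCGGAAGT and the CRE TGACGTCA. Capitals mark a match. The *Dusp5* stretch lies at chr19:53528895-53529108 (plus strand), the *Etv5* stretch at chr16:22439720-22439820 (minus strand) and the *Rgs2* stretch at chr1:144004162-144004399 (minus strand).
Dusp5: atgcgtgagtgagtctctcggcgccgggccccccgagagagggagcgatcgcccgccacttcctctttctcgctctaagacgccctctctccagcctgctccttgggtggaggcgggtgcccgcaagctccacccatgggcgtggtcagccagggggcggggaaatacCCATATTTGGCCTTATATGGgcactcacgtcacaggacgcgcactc
Etv5: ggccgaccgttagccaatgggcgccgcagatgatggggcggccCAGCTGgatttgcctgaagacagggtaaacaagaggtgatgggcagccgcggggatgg
Rgs2: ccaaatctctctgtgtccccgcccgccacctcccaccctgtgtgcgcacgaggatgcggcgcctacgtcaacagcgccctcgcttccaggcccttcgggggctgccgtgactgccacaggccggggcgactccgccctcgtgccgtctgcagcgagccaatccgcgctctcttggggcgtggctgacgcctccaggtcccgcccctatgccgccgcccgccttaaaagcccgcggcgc

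*Dusp5* held adjacent CArG boxes, at bases 82 to 73 and 72 to 63 before the RefSeq start, and 1.47% of 32851 promoters of this length held such a box. *Etv5* held CAGCTG at bases 207 to 202 before its first RefSeq start, a motif that 13% of promoters held. No other match was found in the windows of the 7 members, *Rgs2*, *Spry1*, *Spry2*, *Dusp6* and *Fgfr4* included. The AP-1, ETS and CRE sequences were present in 4.46%, 2.88% and 1.55% of all promoters. The *Rgs2* window was 72.4% G and C, against a median of 52.4% over all promoters. Matches of letters are a description and do not show binding.

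The members differed widely in how much their levels moved. Between its lowest and highest group mean, *Spry1* spanned 153-fold, *Rgs2* 61.8-fold, *Fgfr4* 44.9-fold, *Etv4* 40.0-fold, *Dusp4* 21.1-fold, *Spry4* 18.8-fold, *Etv5* 17.4-fold, *Dusp6* 9.39-fold, *Spry2* 7.64-fold and *Dusp5* 5.24-fold. *Spry1*, *Spry2*, *Spry4*, *Dusp6* and *Etv5* all had their lowest mean in C2C12iMyoD1 at 24 h with dox. For *Spry1*, *Spry4* and *Etv5* these libraries overlapped those of the next lowest group. How many of all genes were lowest there was not counted. On a length-corrected scale (TPM), which allows levels of different genes to be compared, *Etv4* was the most abundant member in growth medium without dox at 35.4 TPM, with *Dusp5* at 17.5, *Spry2* at 17.4, *Dusp6* at 14.2, *Dusp4* at 12.3 and *Spry1* at 0.508 TPM. At 48 h without dox, *Fgfr4* led at 94.3 TPM and *Spry2* followed at 58.4 TPM, while *Etv4* was at 5.71 TPM. *Rgs2*, at 151 TPM, was above every other member at 24 h without dox, where *Spry2* came next at 10.2 TPM.

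**Figure D1:**
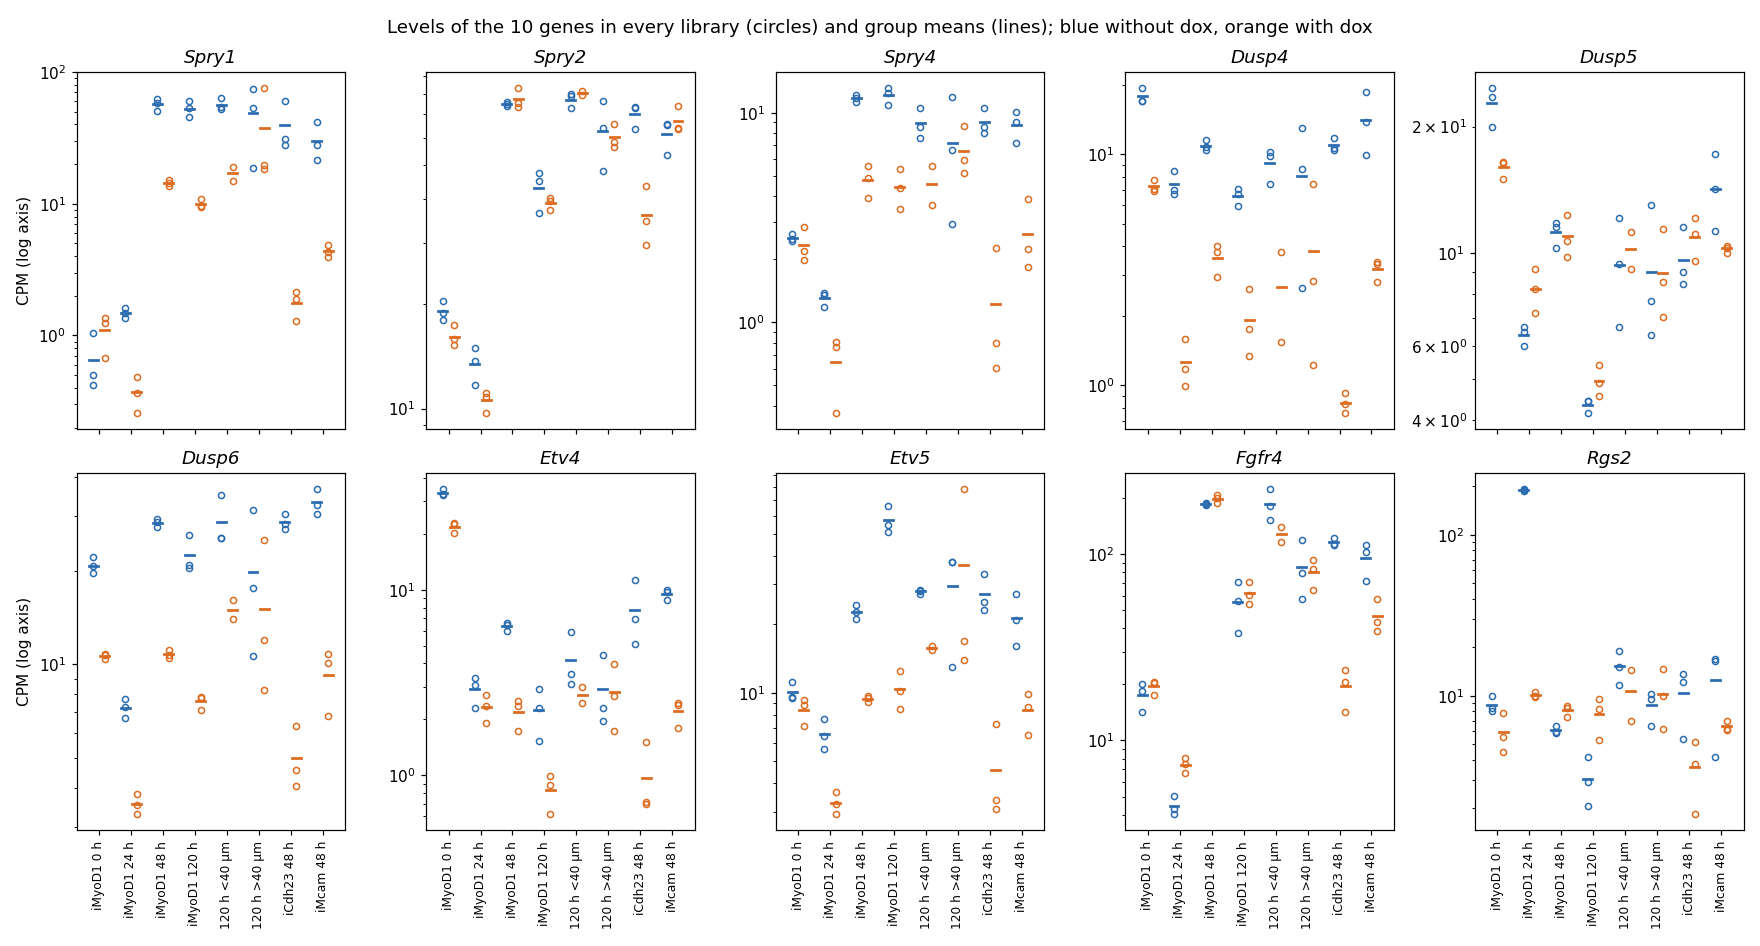
CPM (log axis, a separate scale for each gene) of the 10 genes in every library, with groups on the horizontal axis. Circles are libraries, lines are group means, blue is without dox and orange is with dox. *Rgs2* stands at 189 CPM in 1 group and at 15.3 CPM or below in the other 15, and *Spry1* is near 1 CPM at 0 and 24 h and at 56.9 CPM at 48 h without dox.

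*Rgs2* (ENSMUSG00000026360, GRCm38 chromosome 1 from 143999338 to 144004161, minus strand) was high in a single group. In whole cultures at 24 h without dox it was at 189, 187 and 191 CPM, against 8.07, 8.40 and 9.93 CPM at 0 h and 5.94, 6.53 and 5.85 CPM at 48 h without dox. With dox at 24 h it was at 10, 9.77 and 10.5 CPM, overlapping the 0 h cultures without dox and above those at 48 h without dox. No library of the other 15 groups came above 19.0 CPM, and their neighbours in the order of means overlapped throughout. The log2 differences were 4.45 from 0 to 24 h and -4.95 from 24 to 48 h without dox, and -4.25 (standard error 0.0584) between dox and no dox at 24 h, which is 19.0-fold. The dox contrast chose the gene and the time steps share its 24 h libraries without dox, so these values carry no test. The high level is seen in all 3 libraries of 1 group, which share a deposited table.

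*Fgfr4* (ENSMUSG00000005320, GRCm38 chromosome 13 from 55152640 to 55168759, plus strand) dipped at 24 h and peaked at 48 h in C2C12iMyoD1. Without dox it was at 14.3, 18.5 and 20.1 CPM at 0 h, 4.02, 5.04 and 4.26 CPM at 24 h, 189, 183 and 187 CPM at 48 h, and 71.4, 56.3 and 37.9 CPM at 120 h. With dox it was at 7.45, 8.03 and 6.66 CPM at 24 h, 200.4, 209 and 189 CPM at 48 h and 53.9, 71.1 and 60.4 CPM at 120 h. The 3 groups with the highest means, 48 h with dox, 48 h without dox and myoblast-enriched without dox, overlapped one another. The lowest groups, at 24 h without and with dox, did not overlap each other or any other group. In C2C12iCdh23 with dox *Fgfr4* averaged 19.6 CPM, close to its level in growth medium.

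From 0 to 24 h without dox, most members fell. With edgeR's quasi-likelihood test and a gene called at an adjusted p under 0.05 and a change over 2-fold, 5 of 10 members fell, against 16.6% of the 13632 genes tested, and of the 9 members other than *Rgs2*, whose rise is described above and not tested, 1 rose (*Spry1*), against 9.49%. *Etv4* (ENSMUSG00000017724, GRCm38 chromosome 11 from 101769742 to 101785371, minus strand) fell from 34.7, 32.6 and 32.4 CPM to 2.31, 3.05 and 3.36 CPM, a log2 fold change of -3.47 (standard error 0.123, adjusted p = 1.42e-11). *Fgfr4*, *Dusp5*, *Dusp6* and *Dusp4* fell, with log2 fold changes of -1.95, -1.79, -1.49 and -1.23. *Spry2*, *Spry4* and *Etv5* passed the adjusted p with falls under 2-fold, at -0.46, -0.92 and -0.57. *Spry1* rose from 0.418, 0.500 and 1.05 CPM to 1.62, 1.35 and 1.49 CPM, a log2 fold change of 1.19 (standard error 0.351, adjusted p = 0.00739), at levels near the bottom of its range. The summed level of 10 proliferation markers went from 3239.7 to 1013 CPM over the same step, and its part in these changes was not tested.

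From 24 to 48 h without dox, the Sprouty genes and *Fgfr4* rose together. Of 10 members, 7 were called up, against 19.3% of the 14017 genes tested, and of the 9 members other than *Rgs2*, whose fall is not tested, 0 were called down, against 11.1%. *Spry1* (ENSMUSG00000037211, GRCm38 chromosome 3 from 37639947 to 37644598, plus strand) rose to 62.0, 57.8 and 50.9 CPM, a log2 fold change of 5.26 (standard error 0.114, adjusted p = 1.14e-13). *Fgfr4* rose by a log2 fold change of 5.39 (standard error 0.0833, adjusted p = 4.47e-15). *Spry4*, on chromosome 18, went from 1.30 to 11.7 CPM on average, a log2 fold change of 3.17. *Spry2* (ENSMUSG00000022114, GRCm38 chromosome 14 from 105891947 to 105896819, minus strand) went from 13.4 to 75.1 CPM, a log2 fold change of 2.48. *Dusp6*, *Etv5* and *Etv4* rose by log2 fold changes of 1.99, 1.78 and 1.13, and *Dusp4* and *Dusp5* rose by less than 2-fold, by 0.56 and 0.81. The myotube marker sum rose from 15.9 to 17878 CPM, and time, batch and deposited table change together in this step.

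From 48 to 120 h without dox the members went separate ways. One of 10 was called up, against 11.7% of the 13786 genes tested, and 3 down, against 18.1%. *Etv5* (ENSMUSG00000013089, GRCm38 chromosome 16 from 22381309 to 22439719, minus strand) rose from 22.6, 24.4 and 21.1 CPM to 66.3, 54.4 and 50.6 CPM, a log2 fold change of 1.35 (standard error 0.12, adjusted p = 1.31e-05). Its relative *Etv4* fell from 6.65, 6.48 and 5.98 CPM to 2.31, 2.90 and 1.52 CPM, a log2 fold change of -1.48 (standard error 0.236, adjusted p = 0.000463). *Fgfr4* and *Dusp5* fell, at -1.74 and -1.35. *Spry1* and *Spry4* had log2 fold changes of -0.09 and 0.07 and overlapped between the times, while *Spry2*, *Dusp4* and *Dusp6* fell by less than 2-fold (-0.79, -0.70 and -0.33). *Dusp6* did not pass without any 1 of the 48 h libraries or without 120 h replicate 2 (-0.35 to -0.28, adjusted p from 0.0766 to 0.108). *Rgs2* fell by 0.98 on the log2 scale (adjusted p = 0.00579), just under 2-fold. The proliferation marker sum went from 1759 to 439 CPM and the myotube marker sum from 17878 to 23472 CPM, and their part in these changes was not tested.

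With dox, each step over time was tested on its own, and whether the steps differed from those without dox was not tested apart from 48 against 120 h. From 0 to 24 h, 7 of 10 were called down, against 11.6% of the 13943 genes tested. They were *Etv4*, *Dusp4*, *Spry4*, *Dusp6*, *Spry1*, *Fgfr4* and *Etv5*, with log2 fold changes of -3.25, -2.55, -1.82, -1.59, -1.51, -1.41 and -1.37. *Dusp5* and *Spry2* fell by less than 2-fold (-0.95 and -0.61), and *Rgs2* differed by 0.78, which carries no test. *Spry1*, which rose in this step without dox, went from 1.36, 0.678 and 1.25 CPM to 0.365, 0.259 and 0.488 CPM with dox. From 24 to 48 h, 7 were called up, against 17.0% of the 14953 genes tested, with *Spry1* at 5.18, *Fgfr4* at 4.74, *Spry2* at 2.85, *Spry4* at 2.81, *Dusp6* at 1.58, *Dusp4* at 1.52 and *Etv5* at 1.5 on the log2 scale. *Dusp5* rose by less than 2-fold (0.40), and without 48 h dox replicate 2 it did not pass (0.32, adjusted p = 0.0561), while *Rgs2* differed by -0.33, which carries no test. *Etv4* did not pass in this step (-0.12, adjusted p = 0.652) and stayed near 2 CPM. From 48 to 120 h, *Fgfr4*, *Etv4* and *Dusp5* were called down, at -1.68, -1.38 and -1.14, against 21.3% of the 14167 genes tested. *Spry2*, *Dusp4*, *Spry1* and *Dusp6* fell by less than 2-fold in this step (-0.98, -0.90, -0.52 and -0.49), and without 48 h dox replicate 2 *Dusp4* did not pass (-0.83, adjusted p = 0.0585). *Etv5*, *Spry4* and *Rgs2* did not pass from 48 to 120 h with dox (0.15, -0.11 and -0.07).

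In growth medium (0 h), 24 h of dox lowered the phosphatase genes. *Dusp4* (ENSMUSG00000031530, GRCm38 chromosome 8 from 34807297 to 34819894, plus strand) fell from 19.3, 16.9 and 17.0 CPM to 6.93, 7.75 and 7.09 CPM, a log2 fold change of -1.28 (standard error 0.104, adjusted p = 6.2e-07). It was the 1 member called down, against 1.36% of the 13550 genes tested. *Dusp6* (ENSMUSG00000019960, GRCm38 chromosome 10 from 99263231 to 99267489, plus strand) fell from 22.1, 20.7 and 19.7 CPM to 10.8, 10.4 and 10.7 CPM, a log2 fold change of -0.96 (standard error 0.0882, adjusted p = 1.94e-06), just under 2-fold. *Etv4* and *Dusp5* fell, with log2 fold changes of -0.59 and -0.50 and adjusted p-values of 3.57e-05 and 0.00075. *Rgs2* fell by 0.57 (standard error 0.181, adjusted p = 0.0235), and without dox replicate 1 or 3 or vehicle replicate 2 or 3 it no longer passed (between -0.60 and -0.39, adjusted p from 0.0515 to 0.106). *Spry1*, *Spry2*, *Spry4*, *Etv5* and *Fgfr4* did not pass, with log2 fold changes between -0.25 and 0.74.

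At 24 h, the values with dox are a description. The thresholds used in the other comparisons would put 5 of 10 members lower with dox, *Rgs2* among them, and 5.13% of all 14078 genes, and nothing is read from this count because the contrast chose *Rgs2*. *Rgs2* had the largest difference. *Dusp4* was at 8.49, 6.70 and 7.03 CPM without and 1.18, 1.59 and 0.996 CPM with dox, a log2 difference of -2.61. *Spry1* differed by -1.97 at levels under 2 CPM, *Dusp6* by -1.06, *Etv5* by -1.05 and *Spry4* by -1.0. *Spry2* and *Etv4* differed by -0.38 and -0.36. *Fgfr4* and *Dusp5* were higher with dox, at 0.70 and 0.34 on the log2 scale. For *Dusp5* the libraries were at 6.01, 6.49 and 6.65 CPM without and 9.16, 7.21 and 8.20 CPM with dox and did not overlap.

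At 48 h, 6 members were called down with dox, against 8.46% of the 13871 genes tested, and their median log2 fold change over all 10 was -1.30, against 0.01 over all genes. *Spry1* fell from 62.0, 57.8 and 50.9 CPM to 14.5, 15.2 and 13.6 CPM, a log2 fold change of -1.99 (standard error 0.0886, adjusted p = 5.63e-08). *Dusp4* and *Dusp6* fell, with log2 fold changes of -1.59 and -1.43 and adjusted p-values of 3.18e-06 and 1.64e-07. The groups did not overlap for any of these. *Etv4*, *Spry4* and *Etv5* fell, with log2 fold changes of -1.57, -1.31 and -1.29. *Dusp5* (ENSMUSG00000034765, GRCm38 chromosome 19 from 53529109 to 53542431, plus strand) was at 10.3, 11.5 and 11.8 CPM without and 10.7, 12.3 and 9.78 CPM with dox, and *Spry2* and *Fgfr4* likewise overlapped, with log2 fold changes of 0.03 and 0.08. *Rgs2* rose from 5.94, 6.53 and 5.85 CPM to 7.41, 8.61 and 8.45 CPM, a log2 fold change of 0.40 (standard error 0.121, adjusted p = 0.0162). In a fit of all groups of its deposited table its adjusted p was 0.179. Without dox replicate 2 or vehicle replicate 1 or 3 it was between 0.0539 and 0.0643. The proliferation marker sum was 1759 CPM without and 591 CPM with dox, and the myotube marker sum 17878 and 7093 CPM. In bulk RNA, fewer cells of a kind and less RNA per cell cannot be told apart.

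At 120 h in whole cultures the same 6 genes were called down, against 8.80% of the 13628 genes tested, and *Rgs2* was called up, against 7.32%. *Etv5* fell from 66.3, 54.4 and 50.6 CPM to 8.50, 12.4 and 10.2 CPM, a log2 fold change of -2.48 (standard error 0.169, adjusted p = 5.95e-06), the largest of the 10. *Spry1* fell from 59.8, 52.9 and 45.8 CPM to 9.37, 9.68 and 10.9 CPM, a log2 fold change of -2.41 (standard error 0.139, adjusted p = 2.23e-06). *Dusp4*, *Dusp6*, *Spry4* and *Etv4* fell, with log2 fold changes of -1.79, -1.58, -1.48 and -1.44. The *Etv4* call is the weakest of these (standard error 0.396, adjusted p = 0.0156), at levels between 0.616 and 2.90 CPM, and without replicate 2 of either group its adjusted p was 0.0529 (dox) or 0.078 (vehicle). *Rgs2* was at 4.18, 2.08 and 2.90 CPM without and 8.30, 5.28 and 9.57 CPM with dox, a log2 fold change of 1.33 (standard error 0.315, adjusted p = 0.00779). *Dusp5*, *Fgfr4* and *Spry2* did not pass, at 0.18, 0.15 and -0.15. Unlike at 48 h, the proliferation marker sum was not lower with dox, at 592 CPM against 439 CPM without, and the myotube marker sum was 15543 CPM against 23472 CPM.

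Whether the dox effect differed between 48 and 120 h was tested as an interaction, called at an adjusted p under 0.05 with no threshold on the fold. Only *Etv5* and *Rgs2* passed among the members, 1 in each direction, against 17.2% of the 14734 genes tested lower and 16.8% higher at 120 h. For *Etv5* the effect was more negative at 120 h by 1.19 on the log2 scale, an interaction of -1.19 (standard error 0.192, adjusted p = 0.000343). The difference lay in the cultures without dox, in which *Etv5* rose from a mean of 22.7 to 57.1 CPM while the dox cultures averaged 9.40 and 10.4 CPM. For *Rgs2* the interaction was 0.93 (standard error 0.337, adjusted p = 0.0463), and it passed only without vehicle replicate 1 or dox replicate 2 of 120 h when 1 library was left out, the other 10 such fits giving 0.71 to 0.95 with adjusted p from 0.0599 to 0.12. *Spry1* had an interaction of -0.42 and an adjusted p of 0.0539, and the other 7 members lay between -0.19 and 0.22 without passing.

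**Figure D2:**
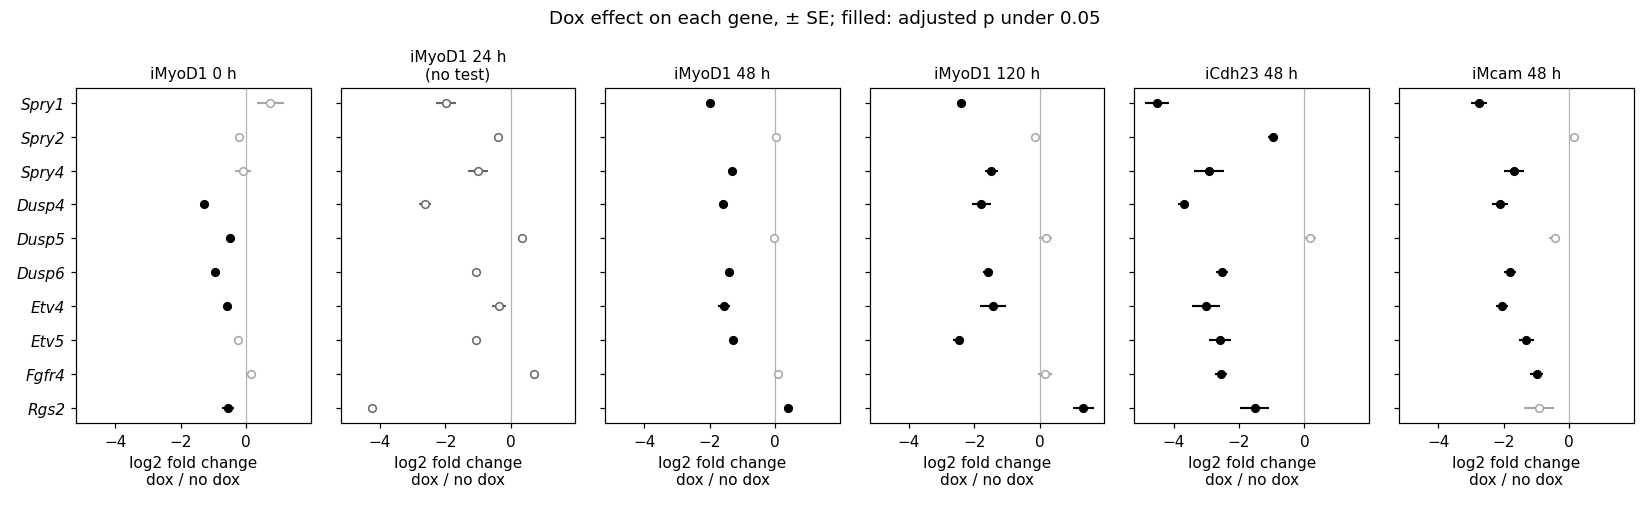
Log2 fold change of each gene between dox and no dox (edgeR, bars are 1 standard error) in 6 comparisons of whole cultures. Filled points have an adjusted p under 0.05, and the 24 h panel is drawn without a test. *Spry1*, *Spry4*, *Dusp4*, *Dusp6*, *Etv4* and *Etv5* lie left of 0 in all 4 comparisons from 48 h on, while *Dusp5* lies between -0.44 and 0.18 in them.

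In C2C12iCdh23 at 48 h, 8 members were called down with dox, against 17.0% of the 14227 genes tested, with a median log2 fold change of -2.57 over the 10. *Spry1* fell from 28.1, 31.0 and 60.4 CPM to 2.13, 1.29 and 1.89 CPM, a log2 fold change of -4.50 (standard error 0.373, adjusted p = 4.47e-05). *Dusp4* fell from 10.6, 10.4 and 11.8 CPM to 0.834, 0.761 and 0.927 CPM, a log2 fold change of -3.69 (standard error 0.175, adjusted p = 6.39e-06), its lowest level in the series. *Fgfr4*, which did not pass with dox in C2C12iMyoD1 at 0, 48 or 120 h in whole cultures, here fell from 122, 114 and 112 CPM to 20.7, 14.3 and 23.9 CPM, a log2 fold change of -2.56 (standard error 0.189, adjusted p = 2.74e-05). *Etv4*, *Spry4*, *Etv5* and *Dusp6* fell, with log2 fold changes of -3.02, -2.91, -2.58 and -2.53. *Rgs2* fell by 1.52 (adjusted p = 0.0182), with adjusted p-values of 0.0539 and 0.0569 without replicate 2 of the dox or vehicle group, and *Spry2* by 0.96 (adjusted p = 0.00108), the latter under 2-fold. *Dusp5* was at 8.99, 11.5 and 8.41 CPM without and 12.1, 11.1 and 9.59 CPM with dox and did not pass (0.18, adjusted p = 0.348). The myotube marker sum was 9622 CPM without and 93.9 CPM with dox, and the proliferation marker sum 1282 and 71.2 CPM, and their part in these falls was not tested.

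In C2C12iMcam, 6 members were called down with dox, against 9.85% of the 13730 genes tested, with a median of -1.50 over the 10. *Spry1* fell from 21.4, 27.8 and 41.5 CPM to 4.85, 3.92 and 4.28 CPM, a log2 fold change of -2.76 (standard error 0.25, adjusted p = 0.000278). *Dusp4*, *Etv4*, *Dusp6*, *Spry4* and *Etv5* fell, with log2 fold changes of -2.11, -2.06, -1.81, -1.68 and -1.31. In a fit of all groups of its deposited table, *Etv5* did not pass (-1.33, adjusted p = 0.0646). *Fgfr4* fell from 103, 112 and 71.6 CPM to 38.7, 43.5 and 57.8 CPM, a log2 fold change of -0.99 (standard error 0.204, adjusted p = 0.00583), just under 2-fold. *Dusp5* had a log2 fold change of -0.44 (adjusted p = 0.0536). It became -0.42 with an adjusted p of 0.0406 when the replicate numbers, taken as pairing the libraries here, entered as a block. *Spry2* did not pass (0.16, adjusted p = 0.28). *Rgs2* was at 17.0, 16.5 and 4.15 CPM without and 6.17, 6.98 and 6.26 CPM with dox and did not pass (-0.91, adjusted p = 0.138). Without the replicate 3 library of the vehicle group it was -1.34 (adjusted p = 0.000264). The myotube marker sum was 8065 CPM without and 1149 CPM with dox, and the proliferation marker sum 1087 and 177 CPM.

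Tested against each other, the dox effects of the adhesion lines differed for 4 members, in each case with a more negative effect in C2C12iCdh23, against 7.61% of the 14552 genes tested in that direction. The interactions were 1.72 for *Spry1* (standard error 0.477, adjusted p = 0.0404), 1.57 for *Dusp4* (standard error 0.314, adjusted p = 0.00947), 1.55 for *Fgfr4* (standard error 0.294, adjusted p = 0.00722) and 1.11 for *Spry2* (standard error 0.202, adjusted p = 0.00587). *Spry2* fell in C2C12iCdh23 and did not pass in C2C12iMcam (0.16), averaging 35.9 CPM with dox in the former and 67.1 CPM in the latter. *Spry4*, *Dusp6*, *Etv4*, *Etv5*, *Dusp5* and *Rgs2* did not pass, with interactions between -0.64 and 1.25. A fit of all groups of the deposited table adds the filtered fractions, with the libraries that went against their labels. In that fit 2 members passed, and *Spry1* and *Dusp4* no longer did, at adjusted p-values of 0.328 and 0.424. *Spry1* also failed to pass in 8 of 12 fits without 1 library, namely any dox library, or vehicle replicate 1 or 2 of C2C12iMcam (1.52 to 1.88, adjusted p from 0.0552 to 0.111). *Cdh23* and *Mcam* were not induced to the same level in these lines.

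In the myoblast-enriched fraction at 120 h, 2 members were called down with dox, against 1.82% of the 14249 genes tested. *Spry1* fell from 54.4, 63.0 and 52.0 CPM to 19.1 and 14.9 CPM, a log2 fold change of -1.72 (standard error 0.18, adjusted p = 0.0118). *Dusp4* fell from 10.2, 7.46 and 9.78 CPM to 1.54 and 3.78 CPM, a log2 fold change of -1.75 (standard error 0.381, adjusted p = 0.0499). *Etv5* and *Dusp6* fell, with log2 fold changes of -0.82 and -0.92 and adjusted p-values of 0.0303 and 0.0499. *Spry4*, *Etv4* and *Fgfr4* did not pass, at -0.94, -0.61 and -0.53, although their libraries did not overlap. *Rgs2*, *Dusp5* and *Spry2* did not pass either (-0.50, 0.13 and 0.07). Without vehicle replicate 3 none of the 4 that fell passed, and without vehicle replicate 1 *Dusp4* and *Dusp6* did not. Leaving out a dox library left 1 library in that group, and *Dusp4* was then at -1.27 without replicate 2 and -2.55 without replicate 3. A fit of all groups of the deposited table adds both adhesion lines and the myotube-enriched libraries, with those that went against their labels. In that fit none of the 4 passed, with adjusted p-values from 0.224 for *Spry1* to 0.573 for *Etv5*. DESeq2 again called 2 members, and 5 members and 1582 of 14025 genes passed its adjusted p. The myotube marker sum was between 7819 and 13205 CPM without and between 7128 and 7437 CPM with dox, and the proliferation marker sum between 641 and 1566 and between 472 and 961 CPM, and their part in these falls was not tested.

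In the myotube-enriched fraction, 0 members and 0 genes (0%) of 14112 were called with dox by edgeR, and 0 members and 79 genes had an unadjusted p under 0.05. DESeq2 called 0 members and 2 genes. The 2 libraries that went against their labels stood apart in the members too. *Spry1* was at 74.1, 18.8 and 53.2 CPM in replicates 1, 2 and 3 without dox and 19.8, 75.5 and 18.4 CPM with dox. *Etv5* was at 37.7, 13.0 and 37.7 CPM without and 16.8, 78.1 and 13.9 CPM with dox. In each case the library labelled replicate 2 lay on the side of the other group. Without both, 0 members and 0 of 14160 genes (0%) were called, 4 members and 1277 genes had an unadjusted p under 0.05, and the median of the members moved from -0.05 to -0.46. Both libraries were left out for their levels of genes that moved with dox, so a larger dox difference is partly built into that choice. With all libraries, *Dusp4*, *Spry1*, *Etv5* and *Dusp6* had log2 fold changes of -1.06, -0.34, 0.32 and -0.37, none past the adjusted p. Without both they had -2.37, -1.70, -1.25 and -1.24 (adjusted p between 0.347 and 0.495, 2 libraries a group), so the sign for *Etv5* turned. The other 6 members lay between -0.10 and 0.26 with all libraries and between -0.71 and 0.35 without both.

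Between the fractions without dox, 0 members were called, against 0.585% of the 14023 genes tested, and without the library labelled myotube-enriched replicate 2, 0 members again, against 0.329% of 14274. By edgeR, 2 members and 2251 of all genes had an unadjusted p under 0.05 with all libraries, and 3 members and 2002 genes without that library. DESeq2, run with all libraries, called 1 member and 477 of 14372 genes. *Fgfr4* was at 223, 153 and 181 CPM in the myoblast-enriched and 120.0, 57.6 and 79.8 CPM in the myotube-enriched fraction, a log2 difference of -1.10 (adjusted p = 0.118), and -0.88 (adjusted p = 0.166) without the library that went against its label. With all libraries it was the 1 member called with the replicate numbers as a block, which were taken as pairing these libraries. The share of all genes called in that fit is not given here. *Rgs2* was at 15.1, 11.7 and 19.0 CPM in the myoblast-enriched and 9.58, 6.46 and 10.2 CPM in the myotube-enriched fraction, a log2 difference of -0.78 (adjusted p = 0.199), also without overlap, and -0.61 (adjusted p = 0.315) without that library. The other 8 members lay between -0.52 and 0.10 with all libraries and between -0.29 and 0.45 without it. With dox, 0 members and 0% of 14291 genes were called (unadjusted p under 0.05 for 0 members), and 0% of 14230 without the library that went against its label. The members then lay between -0.65 and 1.24 with all libraries and between -0.56 and 0.28 without it. The dox effect did not differ detectably between the fractions for any member (0 members at an unadjusted p under 0.05), and 0% of 15008 genes passed with all libraries and 0% of 14830 without both. The members' interactions lay between -0.13 and 1.36 with all libraries and between -0.62 and 0.83 without both.

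**Figure D3:**
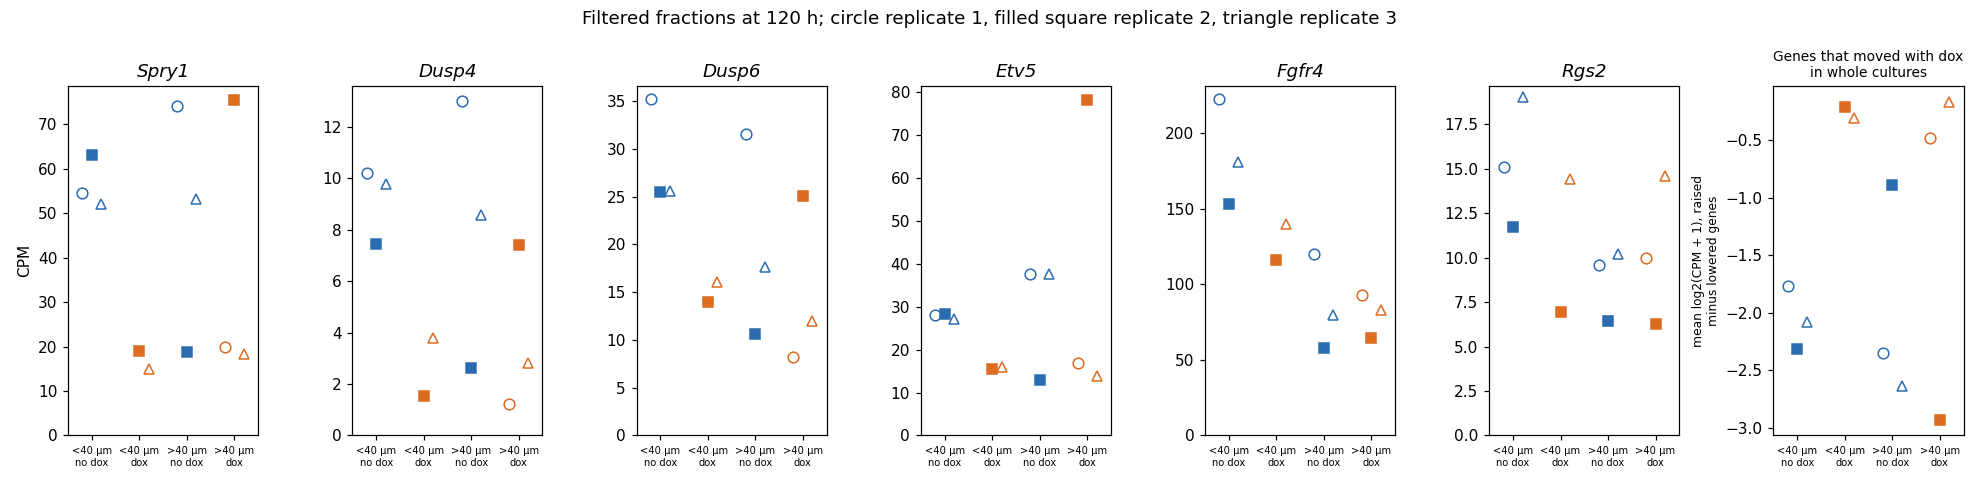
CPM of 6 genes in every library of the filtered fractions at 120 h, and in the last panel the mean log2(CPM + 1) of genes raised by dox in whole cultures minus that of genes lowered. Circles, filled squares and triangles are replicates 1, 2 and 3, blue is without dox and orange is with dox. In the >40 µm fraction the filled squares lie apart from the other replicates of their group, at 18.8 CPM without and 75.5 CPM with dox for *Spry1*.

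Other genes of the pathway, from lists chosen by function, are given beside the share of all genes called down with dox, which was 8.46% at 48 h, 8.80% at 120 h, 17.0% in C2C12iCdh23 and 9.85% in C2C12iMcam. Called up were 823 of 13871 genes at 48 h, 997 of 13628 at 120 h, 1854 of 14227 in C2C12iCdh23 and 960 of 13730 in C2C12iMcam. Of 15 tested ERK target genes outside the members, 5 were called down and 0 up with dox at 48 h, 8 and 0 at 120 h, 10 and 1 in C2C12iCdh23 and 9 and 0 in C2C12iMcam. *Hbegf*, an EGF family ligand, had a log2 fold change of -1.68 at 48 h, and *Epha2*, an ephrin receptor gene, -2.45 at 120 h. *Etv1*, the third gene of the *Etv4* and *Etv5* subfamily, fell from a mean of 10.2 to 0.359 CPM in C2C12iCdh23. Of 16 tested feedback regulators outside the members, 2 were called down and 0 up at 48 h, 4 and 2 at 120 h, 4 and 0 in C2C12iCdh23 and 2 and 1 in C2C12iMcam. *Dusp8*, a phosphatase gene of the JNK and p38 kinases, fell by 2.06 on the log2 scale at 48 h. Among 22 genes of the core cascade from adaptors to ERK, 0 were called in either direction at 48 h, with a median of 0.21, and 11 rose and 4 fell by less than 2-fold, where 7846 of all 13871 genes passed the adjusted p. At 120 h, 0 were called, and in C2C12iCdh23 and in C2C12iMcam 2 of the 22 were called up and 1 down.

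Among 18 tested receptor tyrosine kinase and ligand genes, 5 were called down and 0 up with dox at 48 h, 6 and 0 at 120 h, 11 and 2 in C2C12iCdh23 and 6 and 2 in C2C12iMcam. *Fgf21*, a secreted FGF of stressed muscle and liver, fell from a mean of 204 to 22.8 CPM at 48 h, a log2 fold change of -3.18, and from 263 to 7.98 CPM at 120 h, -5.06. In C2C12iCdh23 with dox it was at 0.233 CPM against 68.0 CPM without. *Fgfr2* and *Fgfr3* rose in C2C12iCdh23, by log2 fold changes of 2.74 and 2.08, where *Fgfr4* fell. Of the other RGS genes tested, 2 of 11 were called down and 1 up with dox at 48 h, 1 and 3 of 12 at 120 h, 6 and 4 of 13 in C2C12iCdh23 and 3 and 3 of 11 in C2C12iMcam. Among them *Rgs10* rose with dox at 48 h (1.28), in C2C12iCdh23 (1.87) and in C2C12iMcam (1.36). At 24 h, where the contrast carries no test here, *Myc*, a growth regulator, was at 145 CPM without and 8.81 CPM with dox on average, and *Fosl1*, an AP-1 subunit, at 26.1 and 5.71 CPM. In the other direction, the receptor gene *Erbb3* was at 1.47 CPM without and 15.8 CPM with dox.

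Across the 16 group means of log2(CPM + 1), several members ran in parallel. Pearson's r was 0.95 for *Spry1* with *Spry4*, 0.94 for *Spry2* with *Fgfr4*, 0.93 for *Spry4* with *Etv5* and 0.90 for *Spry1* with *Etv5*. *Dusp5* and *Etv4*, both highest in growth medium, had r = 0.77 with each other and -0.30 and -0.17 with *Spry1*. These are descriptions over groups that share lines, batches and libraries. Among the 10877 genes that averaged 5 CPM or more, *Mxra7* (r = 0.979) and *Cdkn1c* (r = 0.978), a cyclin-dependent kinase inhibitor gene, were most like *Fgfr4*. The mean of the 8 Sprouty, phosphatase and ETS genes was most like *Cd276* (r = 0.971), *Hhat* (0.951) and *Trib1* (0.950). For *Rgs2* the most similar gene was *Utp23* (r = 0.890), which became 0.536 without the 2 groups farthest from the median of *Rgs2*, the whole cultures without dox at 24 and at 120 h.

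The split of counts between transcripts shifted for some members, which leaves their summed counts as they are but enters their TPM through the transcript lengths. *Spry2*, *Spry4* and the 3 phosphatase genes each had 1 transcript in the tables. For *Spry1*, ENSMUST00000108109 took 98.8% of counts in the whole cultures at 120 h without dox and all of them with dox, against 69.0% and 76.9% at 48 h. For *Etv4*, ENSMUST00000107176 took 72.9% at 120 h without and 0.0% with dox, at levels under 3 CPM. The main *Rgs2* transcript, ENSMUST00000127206, took 83.0% of counts at 24 h without dox and 76.6% with dox. *Spry1*, *Spry4* and *Dusp5* overlap annotated genes on the opposite strand, and whether counting used strand is not given in the sources used here, so reads of these neighbours cannot be told apart from theirs.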

How the data were processed

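RNA was polyA-selected and sequenced in 47 libraries of 16 groups taken from the labels. Per the labels and methods, the authors ran nf-core/rnaseq with Salmon, naming mm10, and deposited 3 tables (12, 23 and 12 libraries) of estimated counts per transcript, not scaled to depth or length. Annotation and strand setting are not given in the sources used here. GENCODE vM21 (GRCm38) matched 98.72% of 109617 transcripts and gave lengths and positions.

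Estimated counts were summed per gene and rounded. Each comparison used edgeR 4.0.16 in R 4.3.3 on its own groups (filterByExpr, TMM, quasi-likelihood test, Benjamini-Hochberg adjustment over all genes tested). A call needed an adjusted p under 0.05 and a change over 2-fold, and interactions the adjusted p alone. "Rose" and "fell" are used for an adjusted p under 0.05. Standard errors are derived from the F statistic. All 10 members are covered in every comparison, by value or within a range. Other pathway genes named are, per comparison, up to 3 in each direction with the largest change among those called with a mean of at least 5 CPM. The members and lists were chosen with earlier results of these data known. Alternatives were DESeq2 1.42.0, RLE scaling, no low-count filter, a replicate block, no threshold on the fold and each library left out. Another was 1 fit of all groups in the deposited tables that hold the compared groups, not of the whole series. Scripts were tested on simulated data. Replicates differed by more than sampling noise, so none was a copy of another.

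Same-numbered libraries deviated together in every pair of C2C12iCdh23 (r = 0.280, 0.142 and 0.269), C2C12iMcam (0.500, 0.386 and 0.515) and the fractions without dox (0.506, 0.190 and 0.225), where the numbers were taken as pairing libraries. In the fractions, however, myotube-enriched replicate 3 and myoblast-enriched replicate 2 had r = 0.305, above the same-numbered 0.190 and 0.225. The pairing there is less certain. The labels do not say what a number marks.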

Additional observations from a re-analysis of the deposited data

Results flagged for a closer look

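Dox effects differed between conditions by an interaction test for 2 members between 120 h and 48 h, where 17.2% of all genes passed lower and 16.8% higher, and for 4 members between the adhesion lines, where 7.61% passed in the same direction. The effect on *Etv5* at 120 h minus that at 48 h was -1.19 on the log2 scale (standard error 0.192, edgeR adjusted p = 0.000343). For *Rgs2* the same difference was 0.93 (standard error 0.337, edgeR adjusted p = 0.0463), a call lost in 10 of 12 fits without 1 library. The effect in C2C12iMcam minus that in C2C12iCdh23 was 1.72 for *Spry1* (edgeR adjusted p = 0.0404), 1.57 for *Dusp4* (0.00947), 1.55 for *Fgfr4* (0.00722) and 1.11 for *Spry2* (0.00587). The *Spry1* call was lost in 8 of 12 fits without 1 library. In a fit of all groups of the deposited table *Spry1* and *Dusp4* did not pass (adjusted p = 0.328 and 0.424).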

How the results depend on the processing

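Values were recomputed for every member in the dox comparisons of whole cultures and elsewhere for members that passed, so calls gained elsewhere appear only in the counts of members below. Of 1390 such values over 124 pairs of member and comparison, 1316 kept direction and side of the threshold, 62 no longer passed, 7 newly passed and 5 changed sign. The sign changes came from leaving out 1 library, for values that did not pass: *Spry4* at 0 h (-0.27 to 0.01 over these fits), *Spry2* (-0.01 to 0.07) and *Dusp5* (-0.12 to 0.03, with 0.00 in another) at 48 h and *Fgfr4* at 120 h (-0.07 to 0.37).

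With no threshold on the fold, members past the adjusted p numbered 5 at 0 h (5122 of 13550 genes), 9 at 24 h (8844 of 14078; nothing is read from this contrast, which chose *Rgs2*), 4 in the myoblast-enriched fraction (619 of 14249), 8 from 48 to 120 h without dox (9252 of 13786) and 7 with dox (10407 of 14167). In 1 fit of all groups of the deposited table, 0 were called in the myoblast-enriched fraction, 1 between the fractions without dox and 2 in C2C12iMcam against C2C12iCdh23. Between the fractions without dox, 1 was called with no low-count filter, with DESeq2 and with the replicate block. Apart from DESeq2, the matching counts of all genes are not given here, so nothing is read from these counts or the next ones. Leaving out a dox library of the myoblast-enriched fraction left 1 library in that group. Leaving out 1 library gave 0 to 3 calls in the myoblast-enriched fraction (3 without vehicle replicate 2), 3 to 5 from 48 to 120 h with dox (5 without the 48 h dox replicate 3 library), 0 to 1 between the fractions without dox (1 without myotube-enriched replicate 1) and 1 to 3 for 120 h against 48 h.

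Outside the comparisons taken as paired the replicate block is only a number shared. It left 1 member in the test of 120 against 48 h, where *Rgs2* became 0.92 (edgeR adjusted p = 0.0598), moved *Etv4* at 120 h to -1.41 (0.0522) and *Spry2* at 0 h to -0.23 (0.0407), and changed the call of no other member. DESeq2 was run without the low-count filter, so its medians over all genes cover another set of genes than those of edgeR. From 48 to 120 h they were -0.15 against -0.03 without dox and -0.26 against -0.04 with dox. The median of the members was -0.75 in both fits without dox and -0.71 in both with dox, and no called member changed direction. The causes were not tested. Depth limits *Spry1* at 0 and 24 h and *Spry4* and *Etv4*, with as few as 7, 10 and 14 counts in a library.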

Other observations

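Beyond the members, ligand and receptor genes of the pathway changed over the time course without dox. From 0 to 24 h, 11 of 17 tested were called down and 1 up by edgeR, against 16.6% and 9.49% of all 13632 genes tested. *Pdgfra*, a PDGF receptor gene, fell from a mean of 25.6 to 2.77 CPM, -3.17 on the log2 scale. *Fgf21*, the 1 that was called up, rose from a mean of 0.342 CPM at 0 h to 96.0 CPM at 24 h, 8.18 on the log2 scale, with an edgeR adjusted p of 5.02e-14. *Erbb3*, a neuregulin receptor gene, rose from 1.47 CPM at 24 h to 74.9 CPM at 48 h and by a further 1.44 on the log2 scale by 120 h. *Pdgfb*, a growth factor gene, rose from 0.266 to 27.9 CPM from 24 to 48 h and fell to 3.48 CPM by 120 h. *Egr1* and *Ccnd1*, which respond to mitogens, fell from 98.5 to 15.1 CPM and from 296 to 47.2 CPM from 0 to 24 h, while *Myc* rose from 32.1 to 145 CPM.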
